A study of Drosophila melanogaster with 3 samples.

Results

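The TE insertion calls of ORw1118 were searched for host genes that carried several insertions. Host genes were chosen by the number of genic calls that name them in the list made by treating paired-end reads as single-end, and a gene named in 3 or more calls was a member. This gave 76 of 848 named genes (8.96%, the share set by the rule), with 283 of the 1113 genic calls. DNA came from 100 Oregon-R w1118 adult females per replicate, an otherwise untreated laboratory strain, in 3 biological replicates that the authors combined before calling. A call therefore has 1 value for the pooled flies of 1 strain, no comparison between conditions or replicates can be made, and everything below describes this strain. Intervals are exact 95% intervals (Poisson for reads and numbers of calls, Clopper-Pearson for shares) and cover counting error only. The interval of a coverage ratio covers the supporting reads only and takes the reference reads as exact, so it is too narrow.

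Transposable elements (TEs) are DNA sequences that move or copy themselves to new places in a genome. An insertion that the reference genome lacks is seen as split reads, which match the genome on one side and a TE on the other. LTR elements such as *roo* and non-LTR elements such as *jockey* copy themselves through RNA, whereas elements with terminal inverted repeats such as *hobo* and *pogo* move as DNA, and *FB* (foldback) is counted with them here. An insertion in an exon can interrupt the coding sequence, while an intron is spliced out of the transcript. In *Drosophila*, many of the longest genes encode cell surface proteins, channels and regulators used in the nervous system, with long introns between short exons.

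For each call, the lists give the supporting split reads, the reads of the same site without the TE (reference reads) and their coverage ratio, which equals supporting reads over reference reads plus 1. A ratio of 3 is the recommended minimum that the study applied to TIDAL calls to keep high-confidence TEs. All 1702 calls, 1113 genic and 589 intergenic, held 80886 supporting reads, and the member calls held 13041, with 4 to 165 per call and a median of 36. The number of sequenced reads per replicate is not in the lists. A TE carried by a fraction of the flies and a TE whose reads map poorly both give a low ratio and cannot be told apart in the pooled calls.

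Most members were near the threshold. There were 45 genes with 3 calls, 14 with 4, 12 with 5, 2 with 6, 2 with 7 and 1 with 11. Below the threshold, 139 genes were named in 2 calls and 633 in 1. The 3 longest genes with 2 calls were CG41343 (*lovit*, 434 kb), CG17684 (396 kb) and CG40378 (*DIP-lambda*, 379 kb), which are as long as the longest members. RefSeq lists 73 of the members as protein-coding and 3 as non-coding RNAs. The annotation gave 63 names that are current RefSeq symbols and 13 that are synonyms. In all, 5 calls name 2 members each, so that there were 288 pairs of a call and a member gene. *rg* and CG15465 have the same RefSeq span and the same 4 calls, and *RhoU* and CR44894 share an *FB* call, so these genes are not separate hosts of those insertions.

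*kirre* (chrX:2740384-3134532, Release 6), which encodes an immunoglobulin-domain adhesion protein of muscle founder cells and neurons, had the most calls. Its 11 calls, all in introns, spread over 373 of its 394 kb. From the 5′ end they were *I-element*, *Ivk*, *BS*, 3 of *FB*, 3 of *roo*, *Burdock* and *mdg1*. The ratios in this order were 1.4, 3.2, 1.9, 4.0, 8.3, 3.4, 0.6, 8.0, 0.9, 2.8 and 3.6. Of the 11, 6 were thus at or above 3, and both calls under 1 were *roo*. The *FB* at 8.3 (chrX:2793890-2793981) had 68 supporting and 7.2 reference reads (interval of the ratio 6.44 to 10.5), and the *roo* at 8.0 (chrX:2844417-2844642) had 138 and 16.2 (6.74 to 9.48). The first 6 calls lay within 62 kb of the 5′ end, while 188 kb between the last *roo* and *Burdock* held no call. All 11 were also called from merged reads. There the *FB* at 8.3 had a ratio of 21.5 and the *roo* at 8.0 had 13.2, both outside the intervals given here.

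**Figure D1:**
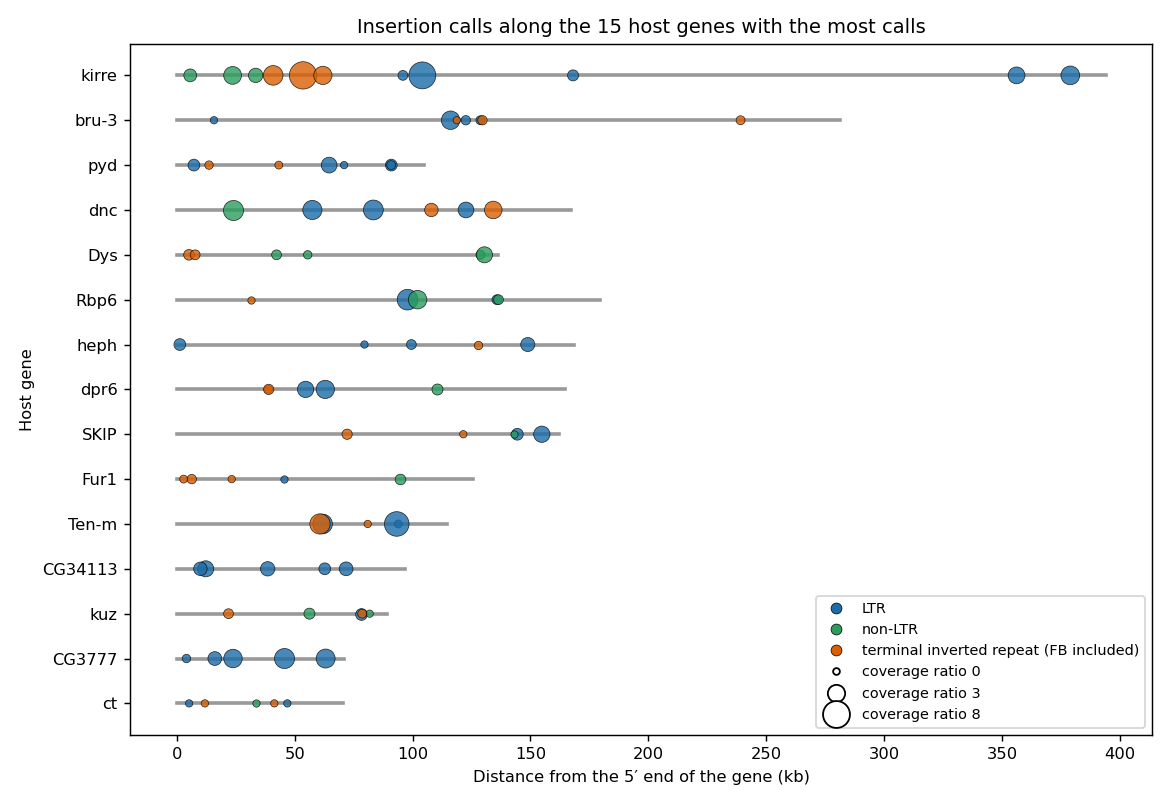
Position of each insertion call (circle) along the 15 members with the most calls (of 12 members tied at 5 calls, the 10 longest are drawn), in kb from the 5′ end of the gene (x axis), with 1 row per gene from the most calls (top, *kirre*) to the fewest. Grey lines are RefSeq gene spans, colour gives the type of TE and the area of a circle grows with its coverage ratio. *kirre* has 11 calls over 394 kb, the 6 circles of *dnc* stand for ratios of 1.6 to 4.2 and the 5 of *ct* for ratios of 0.1.

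*dnc* (chrX:3176440-3343767), the cAMP phosphodiesterase dunce, known for its role in learning, was the other member with 4 or more calls at 3 or above. Its 6 intron calls were *I-element* 4.2, *297* 3.8, *roo* 4.1, *hobo* 1.6, *412* 2.4 and *FB* 3.1, each of a different family and all above 1. They had 61 to 142 supporting reads, and neighbouring calls lay 11.6 to 33.8 kb apart. The 2 members with 7 calls looked different. *bru-3* (281 kb on 3L), an RNA-binding protein of the Bruno family, had *hobo* calls at 0.4, 0.5 and 0.1, *roo* calls at 0.5 and 0.1, *Tirant* at 0.4 and only *blood*, at 3.5, above 1. *pyd* (105 kb on 3R), a scaffold protein of cell junctions related to ZO-1, had *roo* 1.1, *opus* 0.4, *297* 0.1, *412* 2.4, *FB* 0.2 and 0.3 and *Transpac* 1.1. *Dys* (136 kb on 3R), the dystrophin gene, had 6 calls, of which *Juan* at 2.5 was the only one above 1. Its other calls were 2 of *FB* (0.8 and 0.6), *jockey* 0.6, *Doc* 0.3 and *BS* 0.4.

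The 12 members with 5 calls ranged from genes with low ratios throughout to genes with several calls above 3. All 5 calls of *ct* (70.4 kb on X), the homeobox transcription factor cut, had a ratio of 0.1, with 5 to 7 supporting reads each and 30 in total. *Fur1* (126 kb), a furin protease that processes secreted proteins, had 77 supporting reads over *jockey* 0.8, *roo* 0.1 and 3 of *FB* at 0.1, 0.5 and 0.2. At the other end, CG3777 (70.8 kb on X) had *springer* 0.3, *roo* 1.7, 3.5 and 4.2 and *Burdock* 3.7. *Ten-m* (115 kb on 3L), a teneurin that guides synaptic partner matching, had *Stalker2* 6.6, *hobo* 4.3 and *copia* 4.0 beside *roo* 0.2 and *hobo* 0.1. The *roo* and the *Stalker2* of *Ten-m*, with ratios of 0.2 and 6.6, lay 0.648 kb apart.

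Other members with 5 calls had none at 3 or above. CG34113 (*side-III*), a cell surface protein of the sidestep family, had *3S18* 1.7, *Quasimodo* 1.1, *Tabor* 1.9, *roo* 2.5 and *blood* 1.6, so all its calls were LTR elements between 1 and 3. CG34357 had *Fw2* 0.9, *297* 2.1, *1731* 1.5, *Juan* 1.9 and *Bari1* 1.3. *Mef2* (45.4 kb on 2R), the transcription factor of muscle differentiation, was the shortest gene with 5 calls, and these lay within 15.1 kb: *blood* 1.2, *Juan* 0.7, *I-element* 1.2, *jockey* 2.1 and *S-element* 0.6. *kuz*, a metalloprotease that cleaves Notch, had *Max-element* at 1.1 and 4 calls of 0.1 to 0.9. *SKIP* had *flea* 2.6, *412* 1.1 and 3 calls of 0.1 to 0.7.

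Among the members that act in signalling, high and low ratios stood side by side. *rg* (169 kb on X), the anchor protein rugose that binds protein kinase A, had *roo* 8.9 (chrX:5147517-5147733, 131 supporting and 13.8 reference reads, interval 7.40 to 10.5), the highest ratio of all member calls. From merged reads this *roo* had a ratio of 11.8, outside that interval. The other calls of *rg* were *FB* 4.9, *jockey* 1.4 and *hobo* 0.2, and all 4 are also the calls of CG15465. *Pde9*, a cyclic nucleotide phosphodiesterase, had *roo* 3.2, *Quasimodo* 1.2 and *FB* 0.8 and 0.6. *rad* (radish, *rsh* in RefSeq), known for its role in memory, had 2 *Transpac* calls at 3.7 and 4.9 and a *Quasimodo* at 2.3, and none under 1. *CaMKII* (18.4 kb on chromosome 4), a calcium-dependent kinase of synapses, had *pogo* 3.2, *blood* 0.5 and *roo* 1.1. In contrast, *cno*, the junction protein canoe, had only *FB*, at 0.1, 0.4 and 0.2, and *RhoGEF64C* had *pogo* 2.9, *FB* 0.4 and 0.2 and *I-element* 0.4.

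The other cell surface and guidance genes had at most 1 call at 3. *dpr6*, an immunoglobulin-domain protein of synaptic partners, had *copia* 3.4 and *mdg1* 2.6 besides *hopper2* 0.2, *hopper* 0.7 and *I-element* 0.9. *Ptp99A*, a receptor tyrosine phosphatase, had *297* 2.9, *hobo* 1.8, *F-element* 0.5 and *roo* 0.4. *beat-Ib*, of the beaten path family, had *gypsy5* 2.3, *HMS-Beagle* 1.0 and *copia* 2.8, whereas *fra*, the Netrin receptor frazzled, had *FB* 0.4 and 1.8 and *412* 0.1. Over the 7 members of the cell adhesion and axon guidance list, *kirre* and *Ten-m* included, 10 of 36 calls were at 3 or above and 11 were under 1, beside 16.4% and 51.1% of all calls. Of the 10, 6 were those of *kirre* on X, where 36.5% of all calls reached 3.

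Among the 6 members on the RNA-binding protein list, none on X, 20 of 26 calls were under 1 and 3 were at or above 3. Of all member calls off X, 59.9% were under 1 and 10.1% at or above 3. *Rbp6* (179 kb), of the Musashi family, held 2 of those 3, *jockey* 3.5 and *412* 4.5, and *bru-3* the other. *heph*, the polypyrimidine tract binding protein, had *mdg3* 1.8, *HB* 0.3 and *roo* 0.6, 0.1 and 1.1. *mbl*, the splicing factor muscleblind, had *I-element* 2.0, *springer* 0.4 and *FB* 0.2. *brat*, a translational repressor, had *jockey* 0.1, *invader2* 0.4 and *FB* 0.4, and CG34362 (*trv*) had *I-element* 0.1, *Tabor* 0.2 and *flea* 0.2 with 9 reads each.

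Of the members on the transcription factor list, *fru*, which controls sex-specific behaviour, had *mdg1* 4.3 beside *roo* 0.1 and *hobo* 0.1. *Eip75B*, an ecdysone-induced nuclear receptor, had *rover* 3.1 and *roo* at 0.7 in both other calls. *Hr46* (*Hr3*), another nuclear receptor of that pathway, had *pogo* 0.5, *S-element* 1.5 and *mdg1* 0.8. With *ct* and *Mef2*, 13 of 19 calls of these 5 genes were under 1 and 2 were at or above 3, beside 51.1% and 16.4% of all calls. CG13624, a transcription factor described below, is not on this list.

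The list of ion channels held 3 members and that of G protein-coupled receptors 1. *Shawl*, a potassium channel, had *copia* 4.9, *I-element* 0.9, *412* 0.2 and *hobo* 0.3. *nAChRalpha3*, a subunit of the nicotinic acetylcholine receptor, had *springer* 3.0, *gypsy6* 0.3 and *roo* 0.1. *Cngl*, a cyclic nucleotide-gated channel, had *jockey* 2.2 and *Transpac* 1.1 and 2.2. *Octbeta3R*, an octopamine receptor, had *roo* 3.8, *Doc* 0.3 and *springer* 0.4. *Snap25* (225 kb on 3L), a SNARE protein of vesicle release, had 4 calls between 0.2 and 0.8. *sick*, which shapes the actin cytoskeleton, had *copia* 8.2 (chr2L:19806506-19806777), the highest ratio of a member call outside X, with *G4* 1.1 and *mdg1* 0.2.

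Several members without such a role had 1 call far above the rest. *Flo2*, a flotillin of membrane rafts, had *roo* 8.7 (chrX:14866515-14866752), *FB* 0.9 and *I-element* 0.1. CG42340 had *FB* 8.3, *412* 1.0 and *297* 0.4. The non-coding CR44999 had *micropia* 7.8 and *roo* 0.8 and 0.3. *px*, the wing vein gene plexus, had *412* 4.9 and *FB* 1.8 and 0.2. Among the 44 members with no call at 3 or above was *gpp*, a histone methyltransferase, with *FB* 1.0, *S-element* 2.5 and *3S18* 1.6. Another was *Gyc88E*, a guanylate cyclase, with *invader3* 2.3, *Stalker* 0.7 and *Stalker4* 1.3. CG32683 (44.5 kb on X) had 4 calls all above 1, *jockey* 1.8, *flea* 3.9, *Quasimodo* 1.8 and *pogo* 4.5.

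A further 7 members act in development and growth. *nmo*, the kinase nemo, had *roo* 3.4 and 0.2 and *FB* 0.5. *par-1*, a kinase of cell polarity, had *3S18* 2.7 and *S-element* 0.1 and 0.3. *Tl*, the receptor Toll of immunity and dorsal-ventral patterning, had 2 calls above 2, *opus* 2.5 and *diver* 2.2, with *FB* at 0.1. *simj*, a subunit of the NuRD chromatin remodeller, had *copia* 3.1, *FB* 1.4 and *S-element* 0.7. *app*, a palmitoyltransferase of the Fat pathway, stayed below 2 with *mdg3* 1.7, *opus* 0.6 and *roo* 0.2. CG13624 (*REPTOR*), a transcription factor downstream of TORC1, had only calls under 1, *mdg1* 0.5, *roo* 0.4 and *springer* 0.3, and CG7337 (*Wdr62*), a spindle protein, only calls above 1, *412* 3.2, *FB* 1.7 and *pogo* 2.8.

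The members were long genes. Their median RefSeq span was 72.95 kb (interquartile range 44.2 to 117 kb), compared with 43.1 kb for genes named in 2 calls, 16.4 kb for genes named in 1 and 2.16 kb for the 13911 protein-coding genes of RefSeq. Spans of members ran from 3.62 kb (*Df31*) to 394 kb (*kirre*), with 27 over 100 kb and 5 under 20 kb. A longer gene offers more sites, and the rule counts calls without regard to length. By length, protein-coding members were 1 of the 10437 genes up to 5 kb, 0 of 1501 between 5 and 10 kb, 4 of 962 between 10 and 20 kb, 19 of 704 between 20 and 50 kb, 24 of 224 between 50 and 100 kb and 25 of 82 between 100 and 1000 kb (30.5%, 20.8 to 41.6%). In the same bins, all calls per 10 kb of gene were 0.0738, 0.0610, 0.133, 0.156, 0.158 and 0.131. Calls per 10 kb thus did not increase above 20 kb, although the share of members did.

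**Figure D2:**
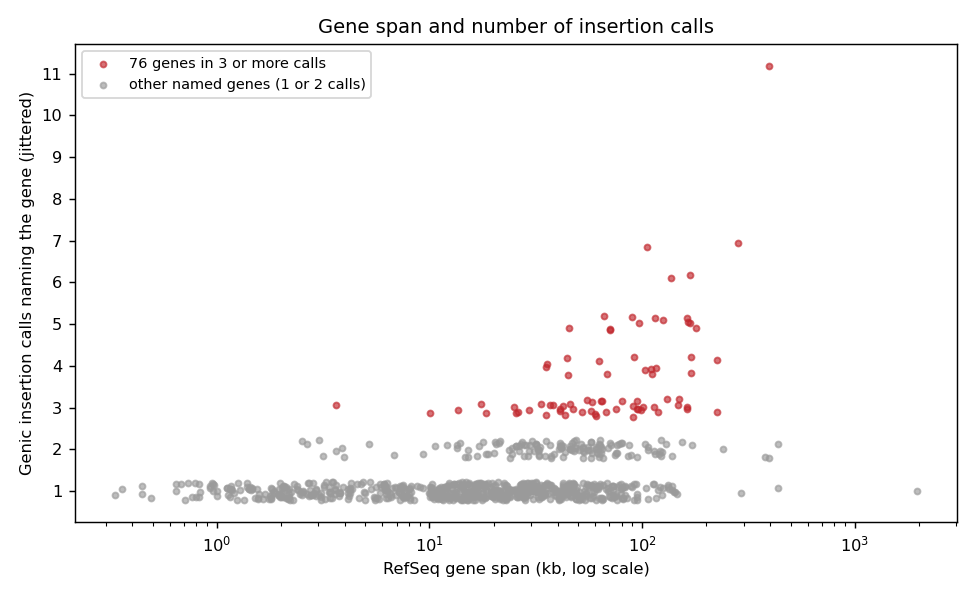
Number of genic calls that name a gene (y axis, with a small random offset) against the RefSeq span of the gene in kb (x axis, log scale). Red points are the 76 members and grey points the other named genes with a RefSeq span. Members have a median span of 72.95 kb, and the grey points at the far right are long genes with 1 or 2 calls.

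Long genes differed in their number of calls. The 5 longest members were *kirre*, *bru-3*, *Snap25*, CR32773 (224 kb) and *Rbp6* (179 kb), with 11, 7, 4, 3 and 5 calls. Next were CG15465 and *rg* (169 kb), which have the same 4 calls. *Ten-a* (292 kb) and *Mur2B* (145 kb) had 1 call each, as had *Myo81F* (1966 kb), which is longer than any member. *shakB* (166 kb), *Gprk1* (149 kb), *Lar* (145 kb), *mamo* (144 kb) and *Con* (142 kb) had none. All these genes outside the members were chosen after their values were seen. Of the 82 protein-coding genes between 100 and 1000 kb, 22 were named in no call, 18 in 1 and 17 in 2. Calls were counted by annotated name, so a gene that the annotation does not name counts as having none. CG46467 counted as 0, while *Glut4EF*, whose span covers it, had 2. Over all members there were 0.413 calls per 10 kb (0.367 to 0.464), a value that the choice of members raises, against 0.344 for genes with 2 calls and 0.336 for genes with 1.

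The 5 members with the most calls per 10 kb were the shortest. Each had 3 calls, the minimum of the rule, so their order follows from their spans. *Df31* (chr2L:21626309-21629932, 3.62 kb), a chromatin decondensation factor, had 8.28 calls per 10 kb, from *Max-element* 0.6, *Doc* 0.5 and *Max-element* 0.6 within 0.961 kb. CG42337 (10.1 kb) had 2.98, CG11221 (*meng*, 13.6 kb) 2.20, *rdgC* (17.5 kb) 1.72 and *CaMKII* 1.63. In 4 of these 5 genes, *CaMKII* being the exception, intervals of calls overlapped, so that fewer than 3 separate sites were found.

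Most calls in members had a low coverage ratio, as did other genic calls. The median was 0.8 in member calls (interquartile range 0.3 to 2.2, range 0 to 8.9) and 0.8 in the 830 other genic calls. A ratio of 3 or above was found for 48 of 283 member calls (17.0%, 12.8 to 21.9%), for 119 of 830 other genic calls (14.3%, 12.02 to 16.9%) and for 16.4% of all 1702 calls. Ratios under 1 were 53.7% of member calls and 53.4% of other genic calls, and 59 member calls had fewer than 10 supporting reads.

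Members differed in how many of their calls reached a ratio of 3. No member had every call at 3 or above, 44 had none, 22 had 1 and 10 had 2 or more. These 10 were *kirre* with 6, *dnc* with 4, CG3777 and *Ten-m* with 3 each, and *Rbp6*, *rg*, CG15465, CG32683, CR44894 and *rad* with 2 each. In 28 members, a call at 3 or above stood beside a call under 1. Of all calls, 16.4% were at 3 or above and 51.1% under 1. Whether such calls stand together in members more often than these shares give was not tested. In 10 members every call was under 1, as in *ct*, *cno*, *Fur1*, *Snap25* and CG34362, and in 8 every call was at 1 or above, as in *dnc* and CG34113.

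**Figure D3:**
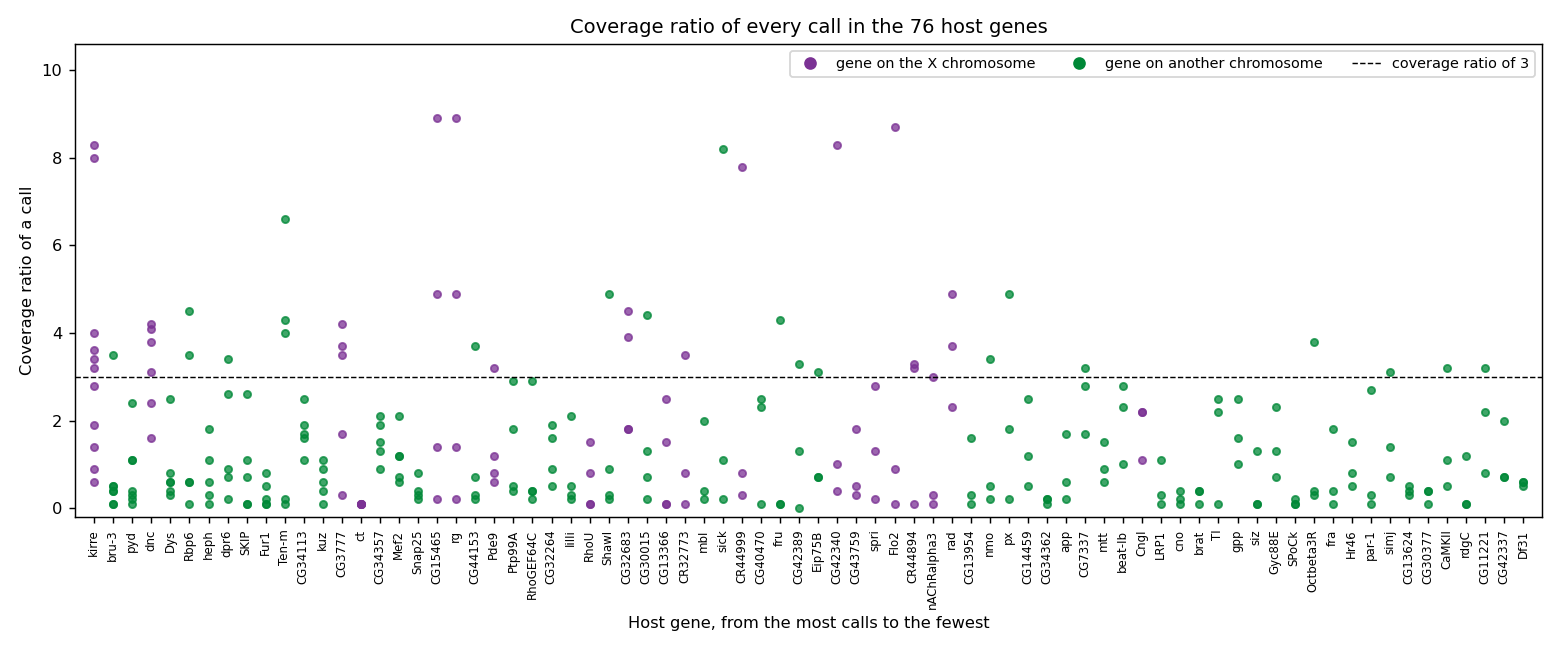
Coverage ratio (y axis) of every call in each of the 76 members (x axis, from the most calls to the fewest). Each point is a call, purple for genes on X and green for genes on other chromosomes, and the dashed line is a ratio of 3. Of the 48 calls at 3 or above, 27 are on X, and in 44 members no point reaches the line.

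Members on X had higher ratios than members elsewhere, and so had all calls on X. X held 20 of the 76 members and 76 of their calls, with a median ratio of 1.75 and 27 calls at 3 or above (35.5%, 24.9 to 47.3%). The 207 member calls on other chromosomes had a median of 0.7, and 21 were at 3 or above (10.1%, 6.39 to 15.1%). For other genic calls these shares were 32.4% on X (24.6 to 40.9%) and 10.8% elsewhere (8.60 to 13.4%), and for all calls 36.5% and 12.5%. On X and off X alike, the intervals of member calls and of other genic calls overlapped. The share of calls on X was 26.9% in members, and 17.4% in other named genes. Reference reads of member calls had a median of 32.5 on X and 39.7 elsewhere, and supporting reads a median of 59.5 on X and 29 elsewhere. The part of read mapping and of reference read normalization in this difference was not tested.

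By arm, members were 20 of 150 named genes on X (13.3%), 11 of 132 on 2L, 11 of 183 on 2R, 17 of 181 on 3L, 16 of 189 on 3R and 1 of 11 on chromosome 4. The median span of members was 94.96 kb on X, 59.7 kb on 2L, 45.4 kb on 2R, 91.6 kb on 3L and 81.41 kb on 3R. Only 2 of 36 member calls on 2R and 2 of 66 on 3R were at 3 or above, but 10 of 64 on 3L and 6 of 38 on 2L were.

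Member calls came from 55 families, led by *FB* and *roo*. *FB* made up 50 calls (17.7%, 13.4 to 22.6%) in 33 genes and 17.7% of other genic calls. *roo* made up 45 calls (15.9%, 11.8 to 20.7%) in 33 genes and 17.6% of other genic calls. Next were *412* with 15 calls (5.30% against 3.49% of other genic calls), *hobo* with 12 (4.24% against 2.05%), *jockey* with 11 and *I-element* with 9. The intervals of members include the share in other genic calls for each of *FB*, *roo* and *412*, and that of *hobo* starts at 2.21%. By type, 54.1% of member calls were LTR elements, 30.7% had terminal inverted repeats and 15.2% were non-LTR, against 50%, 31.2% and 18.2% of other genic calls.

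**Figure D4:**
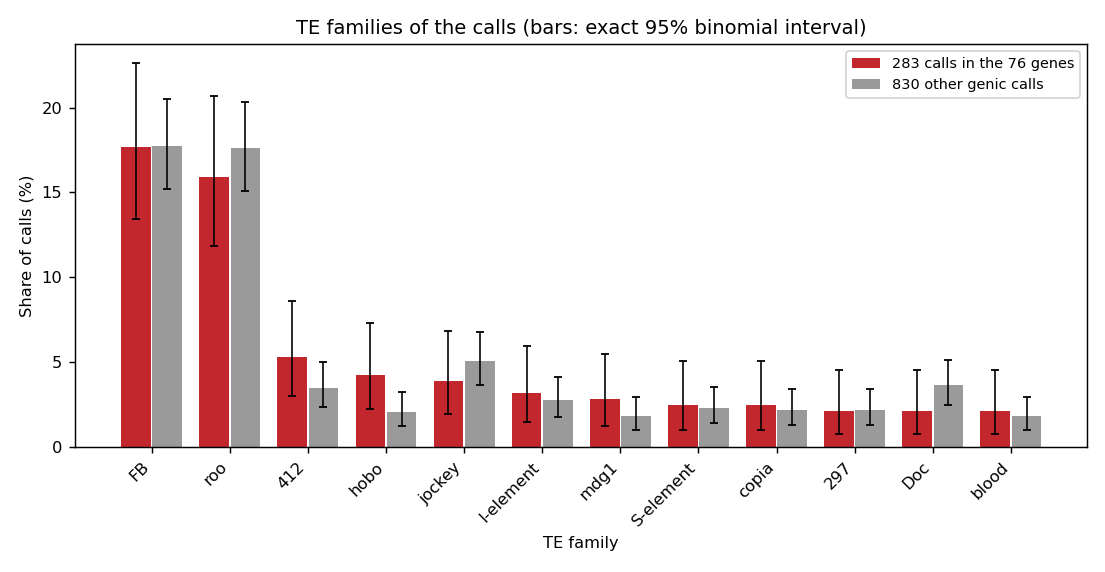
Share of calls (y axis, %) of the 12 families with the most member calls (x axis), in red for the 283 member calls and in grey for the 830 other genic calls, with exact 95% binomial intervals as error bars. *FB* and *roo* each make up between 15.9% and 17.7% of both sets, and the intervals of both sets overlap for each family drawn.

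The families differed in ratio inside the members. The 50 *FB* calls had a median ratio of 0.45, and 6 were at 3 or above. All 6 were on X, in *kirre* (3), *dnc*, *rg* and CG42340, among 19 *FB* member calls there. Of the 31 *FB* member calls on other chromosomes, 0 reached 3 (upper bound of the interval 11.2%), against 7 of 111 other genic *FB* calls on those chromosomes (6.31%, 2.57 to 12.6%). Of the 45 *roo* calls, 10 reached 3, 7 of 17 on X and 3 of 28 elsewhere, in *CG42389*, *nmo* and *Octbeta3R*. *copia* had the highest median ratio (4.0) of the families with 7 or more member calls. Its 7 calls, none on X, had ratios of 8.2 (*sick*), 4.9 (*Shawl*), 4.4 (CG30015), 4.0 (*Ten-m*), 3.4 (*dpr6*), 3.1 (*simj*) and 2.8 (*beat-Ib*). The other 17 genic *copia* calls off X had a median of 0.6, and 1 of them reached 3. These shares were seen after the families were compared and rest on few calls.

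Insertions in 1 gene were mostly of different families. In 46 members every call was of another family, 22 had 2 calls of 1 family and 8 had 3 or more. The largest families, *FB* and *roo*, made up only 17.7% and 15.9% of member calls. Whether calls of a gene share a family more or less often than such shares give was not tested. *RhoU* had 4 *FB* calls (0.8, 0.1, 1.5 and 0.1) and no other, *cno* had 3 *FB* and CG42389 (*mtgo*) 3 *roo* (1.3, 0.0 and 3.3), and no other member had a single family. The remaining 5 of these 8 genes were *kirre* with 3 *FB* and 3 *roo*, *bru-3* with 3 *hobo*, *heph* and CG3777 with 3 *roo* each and *Fur1* with 3 *FB*. The *roo* at 0.0 in CG42389 rested on 4 supporting reads.

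Almost all member calls were in introns. Of 288 pairs of a call and a gene, 274 were annotated as intron (95.1%, 92.0 to 97.3%), 7 as 3′ UTR, 5 as exon and 2 as 5′ UTR. In the other named genes, 79.6% were intron, 9.33% 3′ UTR, 7.68% exon and 3.40% 5′ UTR. Among genes over 50 kb, the intron share was 97.6% (94.5 to 99.2%) in 52 members and 95.8% (92.2 to 98.1%) in 156 other named genes. Between genes of this length, the intervals of the intron share overlapped.

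The 12 members with a call in an exon or UTR had ratios from 0.2 to 4.9 in these calls. The exon calls were *pogo* 3.2 in *CaMKII*, *Transpac* 4.9 in *rad*, *17.6* 0.4 in *Snap25*, *412* 0.2 in *SPoCk*, a calcium pump of the secretory pathway, and *Max-element* 0.6 in *Df31*. Those of *CaMKII* (chr4:1038373-1038603, 103 supporting reads) and *rad* (chrX:13031737-13031966, 116) were the only exon or UTR calls of a member at 3 or above. In 3′ UTRs were *Quasimodo* 0.5 in CG32264, *roo* 0.7 in *Eip75B*, *FB* 0.4 in *brat*, *springer* 0.4 in *Octbeta3R*, *pogo* 0.5 in *Hr46*, and *Max-element* 0.6 and *Doc* 0.5 in *Df31*. In 5′ UTRs were *412* 0.2 in *lilli*, a nuclear protein of the AF4 family, and *hobo* 0.3 in *Shawl*. *Df31* was the only member with no intron call.

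Along the gene, 81 of the 288 pairs of a call and a gene (28.1%, 23.0 to 33.7%) lay in the first 20% of the gene from the 5′ end, and 51, 59, 49 and 47 lay in the following stretches of 20%. The midpoint of 1 call, the *hobo* annotated to the 5′ UTR of *Shawl*, lay outside the RefSeq span. In members over 50 kb, the first 20% held 28.6% of pairs, and in other named genes over 50 kb it held 27.0% (21.2 to 33.4%).

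Neighbouring calls of a member lay a median of 11.6 kb apart (interquartile range 2.76 to 22.8 kb, range 0.007 to 188 kb, 209 pairs). Of these, 98 were within 10 kb, 30 within 1 kb, 16 within 0.5 kb and 17 over 50 kb. Both calls were of the same family in 32 pairs, 16 of them *FB* in 11 genes and 11 *roo* in 7 genes. *FB* neighbours lay a median of 3.48 kb apart and *roo* neighbours 19.9 kb. The closest *FB* pairs were those of *px* (0.391 kb, ratios 1.8 and 0.2), *RhoU* (0.854 kb, 0.1 and 1.5) and *siz*, an exchange factor of Arf GTPases (1.73 kb, 1.3 and 0.1). In each of these, 1 call was at 0.2 or below. Next were pairs of *cno* (1.94 kb, 0.4 and 0.2), *RhoGEF64C* (2.02 kb, 0.4 and 0.2) and *Dys* (2.625 kb, 0.8 and 0.6). The *Dys* pair had no call at 0.2 or below.

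**Figure D5:**
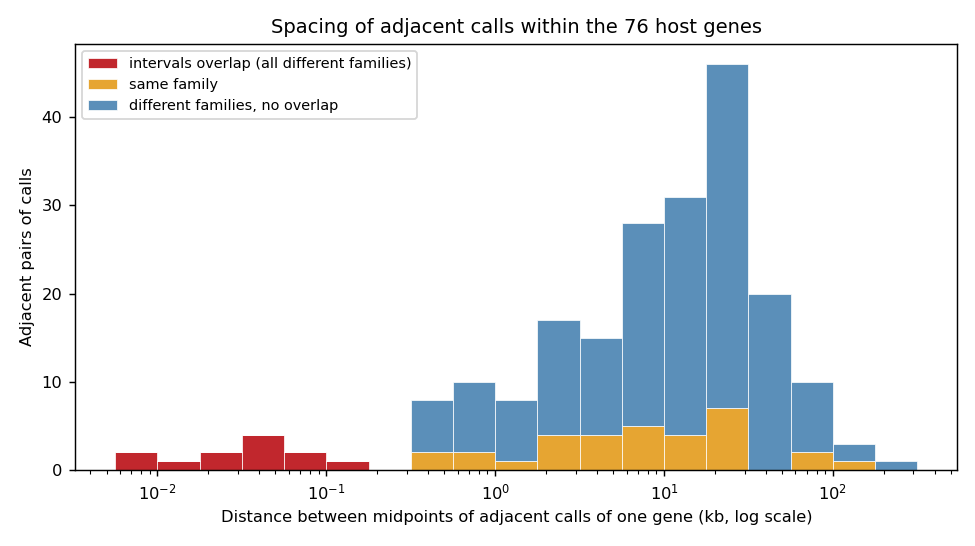
Number of adjacent pairs of calls within members (y axis) by the distance between their midpoints in kb (x axis, log scale), for pairs with overlapping intervals (red), of the same family (yellow) and of different families without overlap (blue). The 12 red pairs lie at 0.12 kb or less, apart from the other 197, which start at 0.38 kb.

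A separate group of 12 pairs had overlapping intervals, with midpoints 0.007 to 0.12 kb apart, and each pair was of 2 different families. *Stalker* with *Stalker4* made up 4, in CG11221, *Gyc88E*, *mtt* and *rdgC*, and *hopper* with *hopper2* made up 3, in CG14459, CG42337 and *dpr6*. The others were *HMS-Beagle* with *HMS-Beagle2* in CG40470, *springer* with *gypsy6* in *nAChRalpha3*, *Max-element* with *Doc* in *Df31*, *roo* with *opus* in *pyd* and *invader3* with *FB* in *LRP1*. In all calls, inside and outside genes, all 8 *Stalker* calls overlapped a *Stalker4* call, and all 6 *hopper2* calls overlapped a *hopper* call. Such pairs name 2 families for 1 interval, and whether both are present was not tested. They add to the count of a gene: 24 of 283 member calls (8.48%, 5.51 to 12.4%) overlapped another call, against 20 of 830 other genic calls (2.41%, 1.48 to 3.70%), a difference that the count rule favours.

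With calls of a gene within 500 bp counted once, 64 genes still had 3 or more sites and 12 did not. The 12 were *Df31*, CG42337, CG11221, *rdgC*, *Gyc88E*, *mtt*, CG14459, CG40470, *nAChRalpha3*, *LRP1*, *px* and *fru*. The *fru* pair was *mdg1* 4.3 and *hobo* 0.1, 0.454 kb apart. *pyd*, *kuz*, *dpr6* and *Pde9* lost 1 site each and remained members.

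In the calls from merged reads, 236 of the 283 member calls (83.4%, 78.5 to 87.5%) had an overlapping call of the same family, as had 84.3% of other genic calls and 85.4% of all calls. All calls of 38 members were found there. Merged reads named 51 of the 76 members in 3 or more calls, 22 in 2 and *Snap25*, *Cngl* and *brat* in 1 each.

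Genes of the 8 function lists were among the members as follows, with 0.525% of all RefSeq protein-coding genes being members (a share set by the rule). Of 137 cell adhesion and axon guidance genes, 49 were named in a call and 7 were members (5.11%). Of 65 RNA-binding proteins, 13 were named and 6 were members (9.23%), and of 118 signalling genes 27 and 7 (5.93%). Ion channels had 3 members of 78, transcription factors 5 of 196, cytoskeleton and muscle genes 2 of 83 and G protein-coupled receptors 1 of 74. The list of pericentromeric heterochromatin and chromosome 4 genes had 1 of 73, *Snap25*. That list is not complete, as *CaMKII*, a member on chromosome 4, was on the signalling list only. The lists hold long genes, with median spans of 11.9 to 32.8 kb against 2.16 kb for all protein-coding genes, and they were chosen with earlier results of these data known, so the shares describe the members and do not separate function from length. Of the 76 members, 44 were on no list.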

How the data were processed

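Genomic DNA of ORw1118 females was sequenced as overlapping paired-end reads. The authors filtered reads with Trim Galore, combined the 3 replicates and called TEs with TIDAL at default parameters, once by treating paired reads as single-end (1702 calls, the list used here) and once after merging pairs with SeqPrep and trimming to 200 bp (1487 calls, used as a comparison). The deposited counts of supporting reads are collapsed split reads of both sides, not normalized. Reference reads were deposited as a signal that TIDAL normalized by a factor not given in the sources used here. Each coverage ratio was deposited with 1 decimal and equals supporting reads over reference reads plus 1 within 0.05. The fraction of supporting reads on 1 side was deposited and not used.

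Genes came from the authors' annotation of each call. A call whose first class is intergenic was left out, each gene was counted once per call, and genes named in 3 or more calls were kept. The class of a call was read at the place of the gene's name. Spans, symbols and biotypes came from RefSeq, Release 6, by symbol or synonym with a span over the call (846 of 848 names). Spacing is between interval midpoints, and a call was shared by both lists if intervals of the same family overlapped by 1 bp. With pooled replicates no test was made. Scripts were tested on simulated calls. Members, function lists and the rule for named genes were chosen with earlier results of these data known. The rule names the 15 members with most calls, the 5 longest and shortest, the 5 with most calls per 10 kb, those with 2 calls at a ratio of 3, 3 calls of 1 family, an exon or UTR call, neighbours within 1 kb or a place on a function list, and the 3 longest genes with 2 calls. Other genes are examples chosen after their values were seen. Alternatives were other minimums of calls, ratio and reads, merged reads, RefSeq spans in place of the annotated names, and other rules for close and shared calls. Calculations ran in Python 3.11.15 with pandas 2.3.3, scipy 1.17.1, numpy 2.4.6 and, for figures, matplotlib 3.10.9. Families named by a number alone were typed as LTR, with *1360* as TIR.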

Additional observations from a re-analysis of the deposited data

How the results depend on the processing

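Of 37 alternatives to 9 results, 24 stayed within the counting interval of the reported value or, for the number of members, within 1.5 times. The 76 members became 215 with a minimum of 2 calls, 31 with a minimum of 4, 16 with only calls at a ratio of at least 1, 4 with only calls at 3 (*kirre*, *dnc*, CG3777 and *Ten-m*) and 47 with only calls of at least 10 supporting reads. Merged reads gave 53 genes, of which 51 were among the 76. RefSeq spans in place of annotated names gave 79, and names of all rows gave 80. The share of member calls at the ratio minimum was 27.9% with a minimum of 2, 46.3% with a minimum of 1 and, at a minimum of 3, 10.1% without members on X (chosen after seeing the data). The median ratio was 1.2 with at least 10 supporting reads. The median span was 109 kb with a minimum of 4 calls. The share of *FB* was 11.9% with ratios of at least 1 and 12.99% with at least 10 reads, and the intron share was 98.4% with ratios of at least 1. Fewer calls entered the settings with a minimum of 4 calls, with only calls of a minimum ratio or of at least 10 reads, or without X. No paired analysis was possible because the lists hold 1 group with its replicates combined, and for the same reason no replicate could be left out. Low read numbers limit the calls under a ratio of 1, and *ct* rests on 30 supporting reads in all.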
